A study of Mus musculus with 6 samples.

Results

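The miR-200 family was followed in small RNA libraries of mature mouse sperm from the cauda, the last stretch of the epididymis, where sperm leaving the testis are stored. The family comprises mmu-miR-200a, mmu-miR-200b, mmu-miR-200c, mmu-miR-141 and mmu-miR-429 (mmu stands for mouse and is left out in part of the text), and every feature of the miRNA table with one of these base names was taken, whichever arm of the hairpin it came from. This gave 9 of the 778 miRNA features. They are the 3p arm of all 5 hairpins and the 5p arm of 4 of them; miR-429-5p was not analysed here. Per the labels, 3 samples came from stress-induced depressed males and 3 from normal males, all 8 weeks old and of the C57BL/6 strain. The labels name neither the stress procedure nor a measure of depressive behaviour, and do not say whether replicates were separate animals. The p-values therefore cover the spread among the libraries, possibly a technical one. The comparison asks whether the small RNA load of sperm differs in stressed males.

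The family is known from epithelia. Its 3p arms act as guide strands that are loaded into Argonaute and repress Zeb1 and Zeb2, transcription factors that switch off epithelial genes such as E-cadherin; these factors in turn repress the miR-200 genes. Sperm are largely silent in transcription, and the lining of the epididymis is an epithelium whose vesicles are known to pass small RNAs to sperm, so that miRNAs of epithelial origin are commonly described in cauda sperm. Sperm libraries can also hold RNA of the epithelial cells themselves.

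The 3p sequences are shown because they define the family and its 2 seed groups. Bases 2 to 8, the seed that pairs with target mRNAs, stand in capitals; the sequences are those of the deposited table, 5′ to 3′, and 9 of 9 members were identical to the RefSeq mature sequences of the GRCm38.p6 build.
miR-200b-3p: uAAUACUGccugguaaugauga
miR-200c-3p: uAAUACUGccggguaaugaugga
miR-429-3p: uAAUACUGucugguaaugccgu
miR-200a-3p: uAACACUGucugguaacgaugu
miR-141-3p: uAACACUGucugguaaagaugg
The seeds of the first 3 and of the last 2 differ at 1 base, U4C counted from the 5′ end of miR-200b-3p. No other miRNA in the table carried either seed. Outside the seed, miR-200b-3p and miR-200c-3p differed by U11G and A22G and by the extra last base of miR-200c-3p. miR-200a-3p and miR-141-3p shared their first 16 bases and differed at 2 of 22 positions.

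The 5p arms, the opposite strands of the same hairpins, are shown because the arms of a hairpin are compared further on. miR-200a-5p and miR-200b-5p share a seed that no other feature of the table carried.
miR-200a-5p: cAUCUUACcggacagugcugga
miR-200b-5p: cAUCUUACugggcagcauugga
miR-141-5p: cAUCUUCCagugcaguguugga
miR-200c-5p: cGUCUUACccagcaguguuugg
The GC content of the 5p arms was 50.0% to 54.5%, against 36.4% to 43.5% in the 3p arms.

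The 5 hairpins lie in 2 clusters. On the minus strand of chromosome 4, Mir200b (chr4:156055681-156055750), Mir200a (chr4:156054896-156054985) and Mir429 (chr4:156053905-156053987) span 1846 bases of GRCm38. All 3 lie in introns of Ttll10, which encodes an enzyme that modifies tubulin, and of the overlapping noncoding Gm13648, except that Mir429 lies in an exon of Gm13648. On the minus strand of chromosome 6, Mir200c (chr6:124718322-124718390) and Mir141 (chr6:124717914-124717985) span 477 bases in an intron of the noncoding gene Gm15884; Mir141 also touches an exon of the unclassified transcript Gm29008. The hairpins of Mir200a and Mir200b carry the arm comparison made further on, and both mature arms stand in capitals, the 5p arm first.
Mir200a: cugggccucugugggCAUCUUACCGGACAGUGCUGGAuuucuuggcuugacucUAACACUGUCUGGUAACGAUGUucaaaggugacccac
Mir200b: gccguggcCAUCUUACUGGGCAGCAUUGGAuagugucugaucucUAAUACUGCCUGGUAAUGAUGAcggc
The hairpin sequences and all positions come from RefSeq for GRCm38.p6 and the gene features from GENCODE for the same assembly, while the sources used here do not name the authors' build.

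The libraries held 1010203 to 1522849 miRNA reads in stress samples and 1083237 to 3067208 in normal samples. Normal replicate 3 stood apart, with the deepest library and an estimated 2.67 miRNA reads for each read of a tRNA fragment, against 0.367 to 0.835 in the other 5 samples. That estimate is uncertain: another depth fitted the tRNA fragment values of normal replicate 3 about equally well and gives 1.33. Scaling factors from TMM, which match libraries on the bulk of their miRNAs, were 1.243 to 1.377 in stress and 0.6831 to 0.8594 in normal samples. The factors thus separated the groups, and each change in level below depends on which scaling is used. Ratios within a sample do not. As a check of the labelled cell type, a list of 14 male germ cell miRNAs was read. All 14 had reads, but miR-449c-5p had only 1 read, in stress replicate 1. The 22 features of the list together took 0.709% to 0.861% of the miRNA reads in stress and 0.675% to 0.883% in normal samples. A list of stromal, smooth muscle and endothelial miRNAs took 0.934% to 1.09% in stress and 0.268% to 0.496% in normal samples. The presence of germ cell miRNAs thus does not by itself settle the cell type. On the TMM scale the germ cell list summed to 5152 to 6932 CPM in stress and 7862 to 12929 CPM in normal samples. It was wholly lower in stress, as were 20.8% of all tested miRNAs on that scale. Of its 17 tested features 0 were called higher and 3 lower in edgeR, against 2.54% and 10.2% of all miRNAs.

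Within the family, reads were concentrated on 3 of the 5 guide strands. miR-200b-3p held 48.9%, 44.4% and 46.9% of the family's reads in stress replicates 1 to 3, against 54.0%, 53.5% and 47.9% in normal replicates 1 to 3. miR-200c-3p held 36.2%, 36.4% and 37.2% in stress and 34.2%, 28.4% and 34.3% in normal replicates. miR-200a-3p held 12.4% to 16.3% in stress and 8.62% to 13.9% in normal samples. The order miR-200b-3p, miR-200c-3p, miR-200a-3p was the same in all 6 samples. miR-429-3p held 0.433% to 0.627% in stress and 0.276% to 0.590% in normal samples, and miR-141-3p 0.205% to 0.410% and 0.182% to 0.385%. Those last 2 guides come from the same clusters as the abundant ones. miR-429-3p had 0.00887 to 0.0141 reads for each read of its cluster partner miR-200b-3p in stress and 0.00517 to 0.0123 in normal samples, and miR-141-3p had 0.00565 to 0.0110 and 0.00533 to 0.0112 for each read of miR-200c-3p. Reads of close sequence can be split: both miR-200a-3p and miR-141-3p carried counts ending in 0.5 in 6 of 6 samples, and miR-200b-3p in 3 and miR-200c-3p in 4, so the low value of miR-141-3p is uncertain.

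Among all miRNAs of the table, miR-200b-3p ranked 9th to 12th by reads in stress and 9th to 13th in normal samples. miR-200c-3p ranked 14th in every stress sample and 15th to 21st in normal samples, and miR-200a-3p 24th to 26th in stress and 27th to 33rd in normal samples. The family was thus present in each library through 3 abundant guides. The AAUACUG seed group took 83.0% to 87.2% of the family's 3p reads in stress and 85.3% to 91.0% in normal samples, with overlapping groups.

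**Figure D1:**
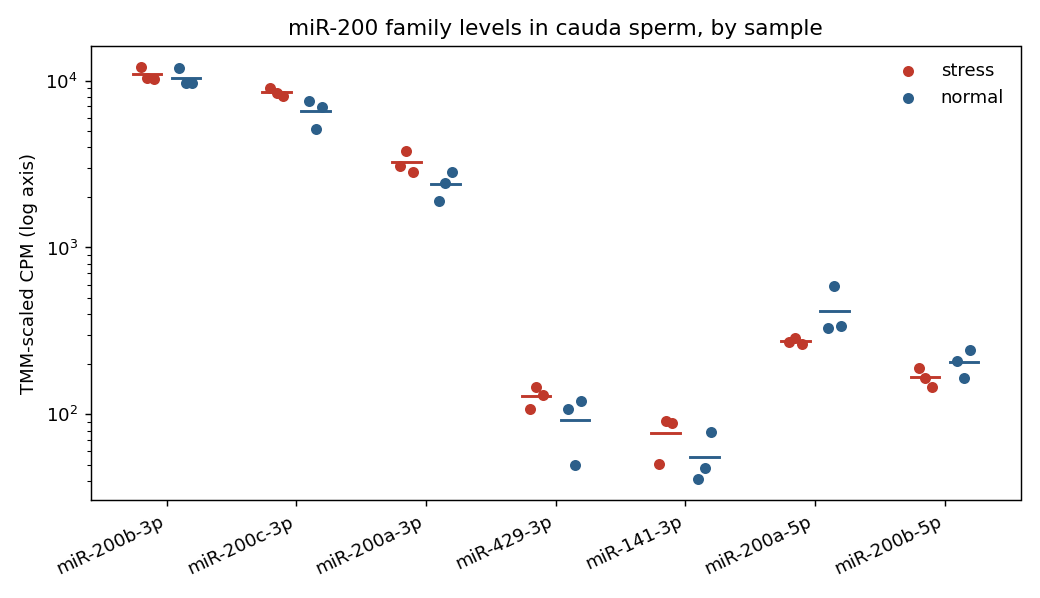
TMM-scaled read counts (CPM, log axis) of the 7 tested miR-200 family features in each sample, with stress in red and normal in blue; points are samples and short lines are group means. The 3p guides lie in the same order in both groups, and miR-200a-5p is the feature with every stress sample below every normal sample.

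No family member differed past the threshold between stress and normal sperm. Of the 9 features, 7 passed the filter on low counts and were tested; 0 rose and 0 fell in edgeR's quasi-likelihood test with TMM scaling (adjusted p = 0.18 to 0.85 over all 236 miRNAs tested). At an unadjusted p under 0.05 the count was also 0 of 7, and DESeq2 called 0. Of all miRNAs tested, 12.7% were called, 2.54% as higher and 10.2% as lower in stress. The members' median log2 fold change was 0.38 and that of all miRNAs 0.00.

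mmu-miR-200b-3p, the most abundant member, stood at 12143, 10337 and 10259.5 CPM (TMM-scaled counts per 1000000 reads) in stress replicates 1 to 3, against 11866, 9683 and 9742 CPM in normal replicates 1 to 3. The groups overlapped, and the log2 fold change was 0.07 ± 0.20 (SE, n = 3 per group, edgeR adjusted p = 0.85). mmu-miR-200c-3p, of the same seed but from the other cluster, stood at 9006, 8468 and 8129.9 CPM in stress replicates against 7526, 5134 and 6984 CPM in the normal replicates. All stress samples lay above all normal ones, with normal replicate 2 lowest (0.38 ± 0.22, edgeR adjusted p = 0.25).

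mmu-miR-200a-3p, the main carrier of the other seed, stood at 3072, 3790 and 2836 CPM in stress and 1895, 2427 and 2836 CPM in normal replicates. Stress replicate 3 and normal replicate 3 met at the same level (log2 fold change 0.44 ± 0.25, edgeR adjusted p = 0.24). mmu-miR-429-3p averaged 128.2 ± 19.3 CPM in stress and 92.5 ± 37.3 CPM in normal samples (SD, n = 3 each), with normal replicate 2 alone at 50.0 CPM. mmu-miR-141-3p averaged 76.9 ± 22.9 CPM in stress and 55.4 ± 20.0 CPM in normal samples. Their log2 fold changes were 0.46 ± 0.34 and 0.45 ± 0.35 (SE, edgeR adjusted p = 0.36 and 0.39), and both overlapped between groups.

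On the 5p side, miR-200a-5p stood at 272.5, 287.8 and 264.1 CPM in stress and 330.2, 587.1 and 337.5 CPM in normal replicates. Its stress samples lay close together below all normal ones, and normal replicate 2 was far above the rest (−0.60 ± 0.30, edgeR adjusted p = 0.18; −0.26 without normal replicate 2). miR-200b-5p stood at 190.1, 164.0 and 145.4 CPM in stress and 208.1, 165.9 and 243.3 CPM in normal replicates, with overlap (−0.31 ± 0.27, edgeR adjusted p = 0.46). miR-141-5p had 8, 5 and 4 reads in stress and 1, 1 and 15 in normal replicates. miR-200c-5p had 0 reads in 5 of the 6 libraries and 5 reads in normal replicate 1. A count of 0 allows up to 2.97 reads per 1000000 in stress and up to 2.70 in the normal libraries at 0, for counting error alone. Both were below the filter. In edgeR with no filter on low counts neither passed (adjusted p = 0.93 for miR-141-5p and 0.32 for miR-200c-5p).

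With TMM scaling the 5 tested 3p arms all had positive fold changes and the 2 tested 5p arms negative ones, though none passed the test; scaled to the miRNA table total, the 5p values were positive too (0.18 for miR-200a-5p and 0.42 for miR-200b-5p). Over all miRNAs tested, 49.0% of 100 features named 3p and 51.6% of 122 named 5p had positive fold changes with TMM. Normal replicate 3, the library that stood apart, bore on these values: without it the fold changes were 0.61 for miR-200a-3p, 0.73 for miR-429-3p and 0.83 for miR-141-3p, with 0 members called. Without normal replicate 2, miR-429-3p was at 0.19, and without normal replicate 1, miR-141-3p was at 0.26 and miR-200a-3p at 0.28, again with 0 called.

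As a share of the miRNA reads, which uses no scaling factor beyond the total, the family was larger in stress sperm. Its 9 features took 3.20%, 2.89% and 3.01% of the miRNA reads in stress replicates 1 to 3, against 1.70%, 1.24% and 1.75% in normal replicates 1 to 3. The mean share was 3.03% ± 0.156 in stress and 1.56% ± 0.282 in normal samples (SD, n = 3 each), a ratio of 1.94, and the groups did not overlap. Exact (Clopper-Pearson) 95% binomial intervals were narrow, 2.86% to 2.92% in stress replicate 2 and 1.73% to 1.76% in normal replicate 3, and cover counting error only, since reads are not independent molecules. By this measure 4 of the 7 tested members (the 3p arms other than miR-141-3p) lay higher in every stress sample than in every normal one and 0 lay lower, but so did 56.8% of all tested miRNAs, with 5.51% lower. On the TMM scale 1 member lay wholly above and 1 wholly below, against 18.6% and 20.8% of all tested miRNAs.

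**Figure D2:**
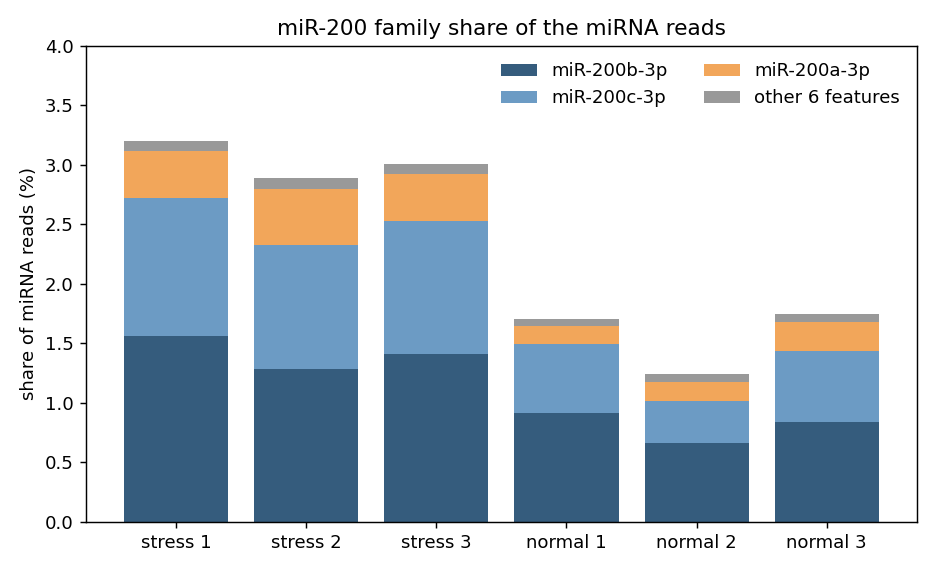
Share of the miRNA reads (percent) held by the miR-200 family in each sample, stacked by member. The stress bars reach 2.89% to 3.20% and the normal bars 1.24% to 1.75%; miR-200b-3p and miR-200c-3p make up most of each bar.

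The difference in share depended on which reads made up the total. let-7 miRNAs and miR-148a-3p are among the most abundant miRNAs here. As a share of the reads outside them the family stood at 8.41%, 7.43% and 7.46% in stress and 6.67%, 4.75% and 6.46% in normal replicates, a ratio of 1.30. Other abundant miRNAs, such as miR-10a-5p, stayed in the total. Those left out include miRNAs called lower in stress with TMM, such as let-7c-5p (log2 fold change −1.86, edgeR adjusted p = 0.0032) and miR-148a-3p (−0.87, edgeR adjusted p = 0.016). Not all let-7 miRNAs were lower (let-7g-5p at 0.45, edgeR adjusted p = 0.23). Leaving out reads that are lower in stress brings the ratio down by itself, so the smaller ratio is not a result about the family. The groups did not overlap over the reads outside let-7 and miR-148a-3p. The share of all miRNAs that did so there was not computed, so this is not read as a result about the family either. When the miRNA table total served as library size in edgeR, 5 of the 7 members were called higher and 0 lower, the 5 being the 3p arms. Of all miRNAs 40.7% were called higher (96 of 236) and 4.24% lower (10), against 6 higher and 24 lower with TMM. The 3p fold changes were then 0.82 ± 0.21 for miR-200b-3p to 1.18 ± 0.26 for miR-200a-3p (SE, edgeR adjusted p = 0.012 and 0.0096), against a median of 0.76 for all miRNAs. With the total of the 3 deposited tables as library size, which rests on an estimated depth of the tRNA fragments, 0 members were called, the 3p fold changes were 0.33 to 0.64 and the median of all miRNAs was 0.25. By that measure 1.27% of all miRNAs were called higher, 1.27% lower and 2.54% in either direction, while the miRNA total called 44.9% in either direction.

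**Figure D3:**
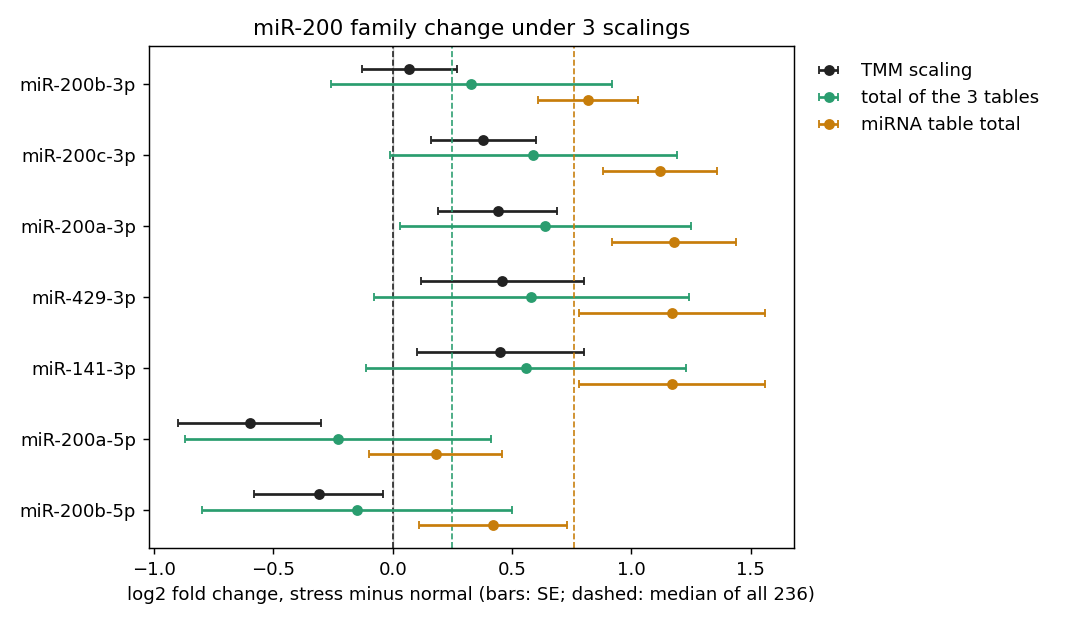
Log2 fold change (stress minus normal, with SE bars) of the 7 tested members under TMM, the total of the 3 tables and the miRNA table total; dashed lines mark the median of all 236 miRNAs under each. The members move with the dashed line, miR-200b-3p stays near it, and the 5p arms lie to its left.

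Ratios between members of one sample need no scaling. The 3p arm outnumbered the 5p arm of miR-200a by 11.3, 13.2 and 10.7 to 1 in stress replicates 1 to 3, against 5.74, 4.14 and 8.40 to 1 in normal replicates 1 to 3. All stress samples were above all normal ones, by 1.0 on average on the log2 scale, and by 0.75 to 1.26 with any single sample left out. For miR-200b the ratio was 63.9, 63.0 and 70.6 in stress and 57.0, 58.4 and 40.0 in normal replicates. These groups did not overlap either, with a log2 difference of 0.36, of which normal replicate 3 carried much: the difference was 0.19 without it. With 3 samples against 3, the smallest p that an exact permutation test can give is 0.1, so neither ratio was tested.

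Of the 40 miRNAs with both arms past the filter, 27.5% had a ratio of the abundant to the other arm that was wholly higher in stress, and 30.0% one that was wholly lower. The median difference over the 40 was −0.13, and 18 were positive. miR-200a ranked 8th and miR-200b 16th from the top. Among these pairs the direction was therefore mixed. miR-141 had too few 5p reads for a usable ratio.

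**Figure D4:**
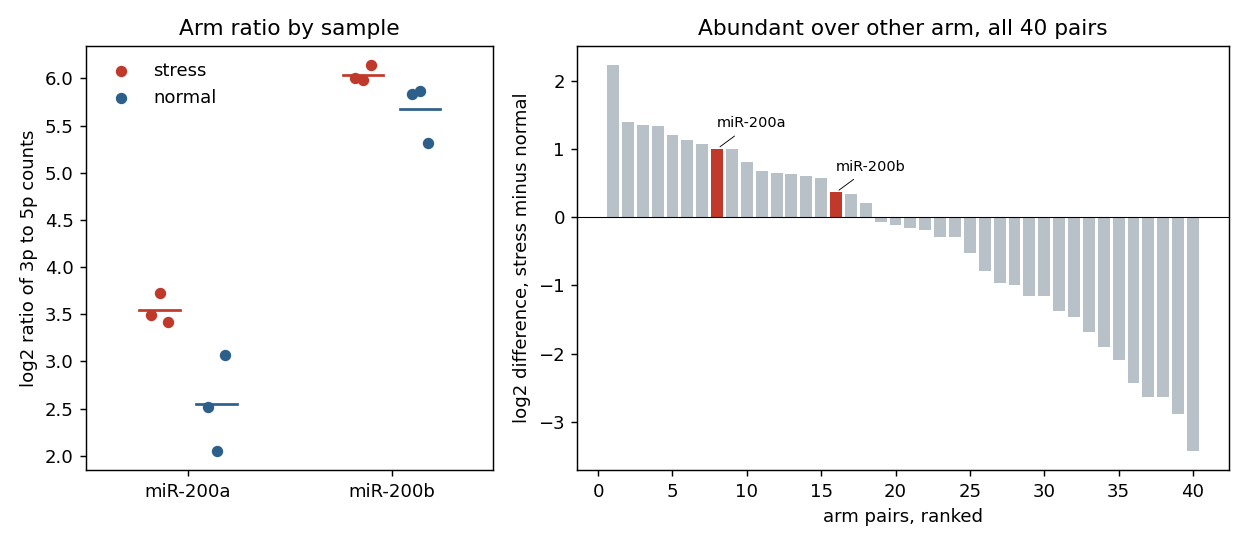
Left, log2 ratio of 3p to 5p counts of miR-200a and miR-200b in each sample, stress in red and normal in blue, with lines at the means. Right, difference of the log2 ratio of the abundant to the other arm (stress minus normal) for 40 miRNAs, ranked from the highest; miR-200a (8th) and miR-200b (16th) are marked in red.

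Between the clusters, the chromosome 6 guides numbered 0.591, 0.600 and 0.621 for each chromosome 4 guide in stress replicates 1 to 3, against 0.546, 0.426 and 0.556 in normal replicates 1 to 3. The stress samples were higher in each case, with a log2 difference of 0.26 (0.13 without normal replicate 2, the lowest). Between the main guides of each cluster, miR-200c-3p over miR-200b-3p stood at 0.742, 0.819 and 0.792 in stress and 0.634, 0.530 and 0.717 in normal replicates. These groups did not overlap, but the other 9 of the 10 ratios between 3p members did. Over all pairs of tested miRNAs, 40.3% of the ratios did not overlap, so a single such ratio among 10 is no more than the background share.

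Other miRNAs known from epithelia were read as a list of 7 (miR-205, miR-203, miR-375, miR-31, miR-192, miR-194 and miR-215). Of their 10 features 6 were tested, and 0 rose and 0 fell in edgeR with TMM (median log2 fold change 0.51). miR-375-3p, a miRNA of endocrine and mucosal epithelia and the most abundant of them, stood at 4846, 5072 and 3917 CPM in stress and 7230.2, 7639 and 5629 CPM in normal replicates. Its stress samples were all lower (−0.57 ± 0.23, edgeR adjusted p = 0.12). miR-192-5p, of gut and kidney epithelium, was at −0.12 ± 0.34 and miR-203-3p, a skin miRNA, at 0.58 ± 0.29 (edgeR adjusted p = 0.82 and 0.18). The other 3 tested features, given after their values were seen, were miR-205-5p at 0.90 ± 0.28, miR-194-5p at 0.71 ± 0.46 and miR-31-5p at 0.43 ± 0.70 (edgeR adjusted p = 0.051, 0.29 and 0.70). miR-205-5p, a miRNA of stratified epithelia, stood at 118.8, 125.9 and 110.1 CPM in stress and 59.8, 47.4 and 80.5 CPM in normal replicates, without overlap. Thus 4 of the 6 had positive fold changes, against 50.4% of all tested miRNAs. On the TMM scale 18.6% of all tested miRNAs lay wholly higher in stress and 20.8% wholly lower, and by share 56.8% and 5.51%. The summed level of the 10 features, most of it miR-375-3p, was 4746.5 to 6023 CPM in stress and 6529 to 8553 CPM in normal samples. As a share of the miRNA reads the direction was the other way, with 0.653% to 0.748% in stress and 0.561% to 0.598% in normal samples, and the groups overlapped on neither scale.

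Markers of other cells are given beside these values. The stromal, smooth muscle and endothelial list took 0.934% to 1.09% of the miRNA reads in stress and 0.268% to 0.496% in normal samples, with 2 of its 8 tested features called higher and 0 lower in edgeR with TMM, against 2.54% and 10.2% of all miRNAs. The leukocyte list took 0.135% to 0.189% in stress and 0.0360% to 0.0814% in normal samples, with 0 of 5 past the threshold. Red blood cell markers took 0.0268% to 0.0817% in stress and 0.0341% to 0.102% in normal samples, with 0 of 3 past it and overlapping groups. Both the stromal and the leukocyte shares were wholly higher in stress, as were those of 56.8% of all tested miRNAs. Summed on the TMM scale, the stromal list was at 7251 to 8006 CPM in stress and 3476 to 6751 CPM in normal samples, and the leukocyte list at 1052 to 1377 and 518.0 to 948.3 CPM. Both sums were wholly higher in stress on that scale too, where 18.6% of all tested miRNAs were. Most of the stromal sum was miR-143-3p (0.49 ± 0.28, edgeR adjusted p = 0.24) and most of the leukocyte sum miR-146a-5p (0.87 ± 0.29, edgeR adjusted p = 0.063). With TMM, 8 of the 8 tested stromal features had positive fold changes, but only 3 of the 5 leukocyte ones. miR-142a-3p and miR-223-5p were at −0.76 and −0.69 (edgeR adjusted p = 0.33 for each). No listed miRNA of these 3 groups was missing from the table or at 0 in every sample. Their part in the miR-200 values was not tested. In such bulk RNA, fewer cells of a type and less RNA per cell cannot be told apart.

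The miRNAs whose pattern over the 6 samples came closest to the summed 3p level of the family were found by the root mean square difference of log2 CPM, each centred on its own mean. They were miR-24-3p (0.115), miR-30c-5p (0.126), miR-21a-5p (0.133), miR-186-5p (0.136) and miR-26a-5p (0.149), against a median of 0.479 over all other tested miRNAs. These 5 are the smallest values by choice, so the median only gives the scale. The family sum itself stood at 0.21, 0.12 and 0.02 above its mean in stress replicates 1 to 3 and at 0.02, −0.28 and −0.09 in normal replicates 1 to 3. The measure favours miRNAs that vary little, and a small value need not mean a shared direction. miR-26a-5p, for instance, stood at −0.16 in stress replicate 2 and at 0.21 in normal replicate 1. None of the 5 passed the test (log2 fold changes 0.00 to 0.32, edgeR adjusted p = 0.37 to 1.0).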

How the data were processed

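The authors deposited a miRNA table of expected counts, with 1 column per sample: 92.0% of its values were whole within 0.001, and the others were fractions such as shared reads give. They also deposited piRNA and tRNA fragment tables in RPM, each scaled to its own total, used here to estimate library totals. Bowtie was used per the submitters' processing notes; the sources used here do not state its version, the build or how reads were counted. After rounding, the quasi-likelihood test of edgeR 4.0.16 (R 4.3.3; glmQLFit and glmQLFTest, TMM scaling, filterByExpr at a minimum count of 10) was run over 236 of 778 features, two-sided, with Benjamini-Hochberg adjustment and a threshold of 0.05. The SE is the log2 fold change divided by the square root of F. CPM are TMM-scaled. DESeq2 1.42.0 was an alternative. The edgeR script was tested on simulated data with as many rises as falls. That test used TMM only and does not bear on the choice of scaling. Shares and ratios use unrounded counts and carry no test. Epithelial miRNAs were named if past the threshold, otherwise the 3 most abundant. The likeness measure added 0.5 CPM, and arm ratios set counts below 0.5 to 0.5. The members and lists were chosen with earlier results of these data known.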

Additional observations from a re-analysis of the deposited data

How the results depend on the processing

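The count of 0 members called higher and 0 lower held under RLE and upper-quartile scaling, both totals of the 3 tables, DESeq2, both other filters and without any single sample; with the miRNA table total as library size, 5 were called higher. Signs of the 7 members held throughout, except miR-200a-5p at 0.18 (adjusted p = 0.63) and miR-200b-5p at 0.42 (adjusted p = 0.27) with the miRNA total, and miR-200b-5p at 0.05 (adjusted p = 0.96) with another estimate of the tRNA fragment depth. That estimate was added after seeing the data, because 2 depths matched the low values of normal replicate 3 about equally well (26 and 30 of 80 values whole). Leaving out 1 sample at a time gave 0.01 to 0.15 for miR-200b-3p, 0.25 to 0.48 for miR-200c-3p, 0.28 to 0.61 for miR-200a-3p, 0.19 to 0.73 for miR-429-3p, 0.26 to 0.83 for miR-141-3p, −0.77 to −0.26 for miR-200a-5p and −0.42 to −0.14 for miR-200b-5p.

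The log2 difference of the family's share was 0.82 to 1.07 without any single sample and 0.40 over the reads outside let-7 and miR-148a-3p. That of the chromosome 6 over the chromosome 4 guides was 0.13 to 0.33.

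With the replicate number as a block, 0 members were called (miR-200c-3p at 0.40, adjusted p = 0.16) and 28 miRNAs in all, against 30. No pairing by number was seen, though deviations from means of 3 samples cannot exclude one. Deviations of same-numbered samples correlated at 0.111, −0.207 and 0.121, and not every sample correlated best with its own number.

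Calls over all miRNAs numbered 30, against 106 with the miRNA total, 6 or 13 with the 2 totals of the 3 tables, 47 in DESeq2, 49 with no filter, 17 without stress replicate 3 and 55 without normal replicate 3. Adjusted p-values here are edgeR's, and depth limits miR-141-5p and miR-200c-5p.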
